A study of Mus musculus with 16 samples.

Results

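The comparison asks whether adipose stem cells given 3 h after concanavalin A changed gene expression in hepatic inflammatory cells by the same amount as in whole liver. It is an interaction at 5 h: the stem cell effect in the cells (treated minus untreated) minus the stem cell effect in liver (treated minus untreated). It uses 10 of the series' 16 arrays. The samples were chosen by their labels, with no measured value involved. All came from female C57Bl/6 mice injected with 300 µg of concanavalin A and taken 5 h later. The treated inflammatory cells are samples 987 and 989, and the untreated inflammatory cells are samples 983 and 985. The treated livers are mice 1, 2 and 3, and the untreated livers are mice 4, 5 and 6. Treated mice received 100000 cultured stem cells, taken from the inguinal fat of C57Bl/6 mice, through the tail vein at 3 h, and untreated mice received concanavalin A alone. No mouse without concanavalin A was measured in these groups, and the age of the mice was not given in the sources used here. The source label of samples 983 and 985 also mentions stem cells, whereas their treatment and description labels do not, so they were used as untreated. Nothing in the labels ties an inflammatory cell sample to a mouse of its own, so the p-values measure only the spread between these samples.

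Concanavalin A is a plant lectin that binds and activates T cells, and in mice it causes an acute hepatitis driven by T cells, NKT cells and macrophages. Interferon-gamma released by activated lymphocytes acts on leukocytes and hepatocytes and induces chemokines and guanosine triphosphatases of cell-autonomous immunity. Adipose stem cells are stromal cells known for dampening immune responses. Whole liver RNA comes mostly from hepatocytes, whereas the inflammatory cell samples are labelled as hepatic inflammatory cells.

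The arrays carried Cy3-labelled RNA and gave spot intensities, reported here as log2 levels relative to each array's 75th percentile. On these 10 arrays, 52.1% to 62.4% of spots were well above background, 0 spots were saturated, and the number of arrays limits the precision. Hepatocyte and T cell markers fitted the labelled sources. Summed over 17 hepatocyte markers, the level was 155 to 571 in the 4 samples of inflammatory cells and 7833 to 11876 in the 6 livers, in units of the array's 75th percentile. The sum of 17 T cell markers was 80.9 to 135 in the inflammatory cells and 10.9 to 21.1 in the livers. Erythroid and platelet RNA was also present in the inflammatory cell samples. The sum of 11 such markers was 4406 (987) and 2667 (989) in treated cells, and 2083 (983) and 2698 (985) in untreated cells. In the livers it was 447 to 708, and its part in the differences was not tested. Albumin RNA was present in the inflammatory cells at a log2 level of 5.32 to 7.92, against 10.08 to 10.80 in the livers. Across genes, treated sample 987 correlated with treated sample 989 at r = 0.976. Untreated sample 983 correlated with untreated sample 985 at r = 0.961, less than sample 985 did with treated sample 989 (r = 0.972). All 4 samples of inflammatory cells lay on 1 slide and the livers on 3 other slides, each with treated and untreated mice, so slide and tissue cannot be told apart. In bulk samples, fewer cells of a type and less RNA per cell cannot be told apart.

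Stem cell effects differed between cells and liver mainly through genes that were lower in treated cells and changed little in treated liver. They included the T cell cytokine genes Il3, Ccl1 and Ifng, the interferon-gamma-induced genes Irgm2 and Cxcl10, the activation receptor gene Il2ra and the growth regulator gene Myc. Of 15277 genes tested, the difference was lower (more negative in the cells) for 159 genes, 1.04% of all tested, and higher for 39 genes, 0.255% (limma, Benjamini-Hochberg adjusted p under 0.05). An unadjusted p under 0.05 was reached by 2781 of the 15277 genes. Counts of unadjusted p-values given below for lists are to be read against that share. In the inflammatory cells alone, 1204 genes fell (7.88% of those tested) and 687 rose (4.5%), while in the 5 h livers 6 genes fell (0.0393%) and 8 rose (0.0524%). These counts rest on a spread shared by both tissues, although the median SD within groups was 0.372 in cells and 0.247 in liver. With array weights estimated per tissue, 214 genes fell and 35 rose in the cells, and 42 fell and 40 rose in the livers. The median stem cell effect over all genes was 0.11 in cells and 0.08 in liver on the log2 scale.

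Of the 159 genes with a lower difference, 152 also fell in the cells by their own test, and 5 rose in the liver by theirs. Their median log2 effect was -2.19 in cells and 0.07 in liver, and 90 of the 159 had effects of opposite sign. Of the 39 genes with a higher difference, 34 rose in the cells and 1 fell in the liver, with a median effect of 1.77 in cells and -0.40 in liver. All differences of a treated and an untreated cell sample lay outside the range of those in liver for each of the 198 genes, as they did for 20.6% of all genes. Across genes, the 2 effects correlated at r = 0.24, and the points share no sample.

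The count depended on single samples. It was 2446 genes without untreated cell sample 985 (1313 lower and 1133 higher, so that 53.7% of them were lower, against 80.3% with all samples), 91 without untreated cell sample 983, 5 without treated cell sample 987 and 139 without treated cell sample 989. It lay between 11 and 213 when a liver was left out: 26, 213 and 19 without treated mice 1, 2 and 3, and 34, 35 and 11 without untreated mice 4, 5 and 6. With the slide as a block, 2 genes, Il3 and Ccl1, passed, and with array weights estimated per tissue 20 genes passed.

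**Figure D1:**
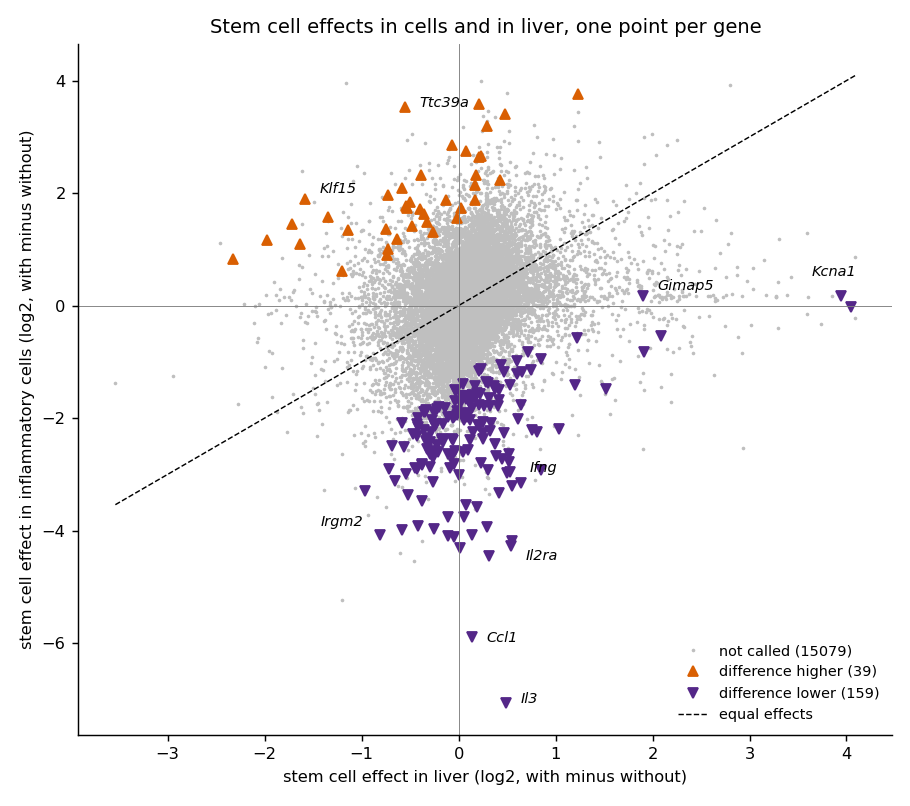
Each point is 1 of 15277 genes. The x axis gives the stem cell effect in liver and the y axis that in inflammatory cells, both as log2 treated minus untreated. Downward triangles mark the 159 genes with a lower difference and upward triangles the 39 with a higher one, and the dashed line marks equal effects. Most downward triangles lie below -1 on the y axis and near 0 on the x axis.

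T cell cytokine genes were lower in treated inflammatory cells and showed no such shift in treated liver. Of 24 listed genes 21 were measured. The difference was lower for 3 of them (Il3, Ccl1 and Ifng) and higher for 0, and 20 of 21 lay below 0. The list's median log2 difference was -2.11, against -0.02 over all genes. In the cells 14 of 21 fell, with a median effect of -1.95, and in the liver 0 of 21 passed, with a median of 0.07. The list's median level was -1.53 and -1.205 in treated cells, against 1.45 and 1.94 in untreated cells. It was -3.15, -2.82 and -3.47 in treated livers, against -3.865, -3.14 and -2.95 in untreated livers. These low levels leave less room for a fall to be seen in liver. With signals under the detection floor raised to it, the median difference was -2.16. The count of lower differences was 5 in that setting, and 4, 7, 2 and 5 without cell samples 983, 985, 987 and 989. Of 17 measured T cell markers 0 passed in either tissue. In cells 11 of 17 lay below 0, with a median effect of -0.32, and 13 of 17 differences lay below 0, with a median of -0.46. The sum of these markers was 80.9 and 135 in treated cells, against 120 and 131 in untreated cells, where Cd3e had no value in sample 983. Their part in the lower differences was not tested.

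Ccl1, a chemokine secreted by activated T cells that binds CCR8, had log2 levels of -1.53 and -0.78 in treated cells, against 4.71 and 4.74 in untreated cells. Its levels in treated livers were 0.76, 0.39 and 0.72, against -0.18, 1.01 and 0.64 in untreated livers. Both treated cell samples lay far below both untreated ones, whereas the livers overlapped. The log2 effect was -5.88 in cells (59.0-fold lower) and 0.13 in liver, and the difference was -6.02 ± 0.51 (SE, limma adjusted p = 0.00554). Within the 3 slides that hold livers, the liver effect was 0.94, -0.29 and -0.25. The probe lies on chromosome 11 at 81993029 to 81993088 (build mm8).

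Il3 encodes interleukin 3, a T cell cytokine that acts on basophils, mast cells and progenitors. Its levels were -6.33 and -7.04 in treated cells, below background, against 0.34 and 0.44 in untreated cells. In all 6 livers it was not well above background. It was at least 32.0-fold lower in treated than in untreated cells, and the fitted difference of -7.56 ± 0.54 (limma adjusted p = 0.00284) became -5.29 with signals raised to the floor. Il3 passed the test in all 22 alternative settings.

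Ifng, the gene of interferon-gamma, had levels of 4.05 and 4.37 in treated cells, against 6.96 and 7.37 in untreated cells. In treated livers it had 2.61, 2.86 and 2.11, against 1.62, 2.04 and 2.32 in untreated livers. The cell samples separated by treatment and the livers overlapped. The effect was -2.95 ± 0.33 in cells (7.75-fold lower) and 0.53 ± 0.27 in liver, a difference of -3.48 ± 0.42 (limma adjusted p = 0.0143). Other cytokine genes fell in the cells without passing the test of the difference. Il2, the T cell growth factor, had an effect of -3.05 in cells and 0.04 in liver (difference -3.09 ± 0.87, limma adjusted p = 0.11). Il4, which drives type 2 responses and is made by activated NKT cells, had -3.73 in cells and -0.93 in liver (difference -2.80 ± 1.15, limma adjusted p = 0.239). Tnf, a mediator of hepatocyte death in this model, had -1.86 in cells and -1.12 in liver, so that the difference was -0.74 ± 0.50 (limma adjusted p = 0.463). Ltb, which encodes lymphotoxin beta, was the member above 0, with a difference of 1.97.

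**Figure D2:**
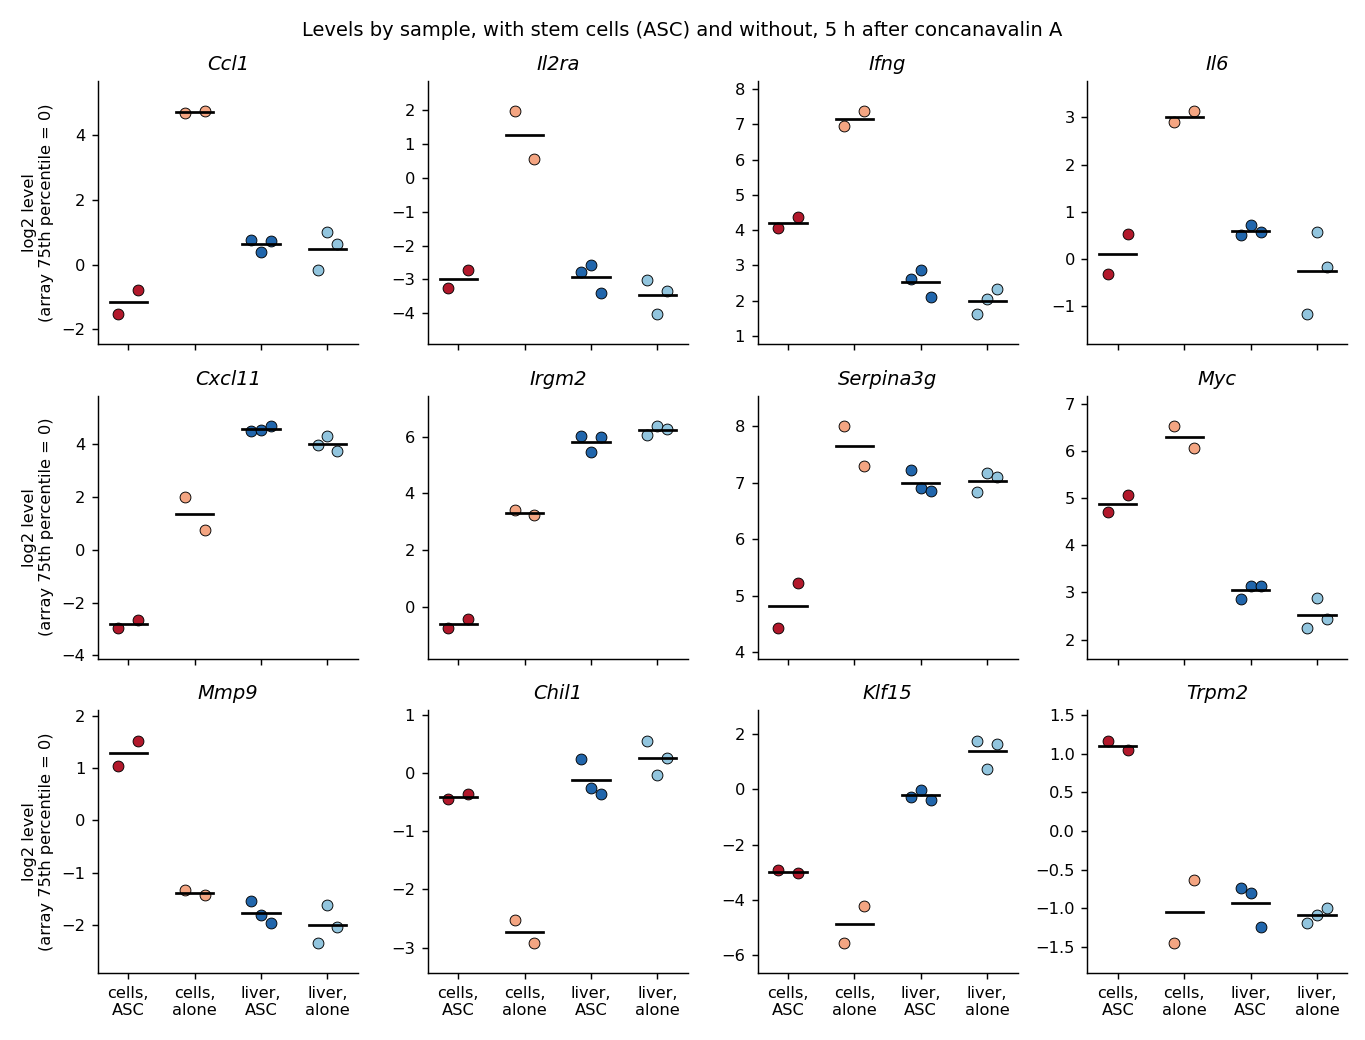
Each panel shows a gene's log2 level, relative to the array's 75th percentile, in every sample of treated cells, untreated cells, treated liver and untreated liver, with lines at the group means. ASC stands for adipose stem cells. Levels of Ccl1, Il2ra, Ifng, Il6, Cxcl11, Irgm2, Serpina3g and Myc are lower in both treated cell samples than in both untreated ones, and those of Mmp9, Chil1, Klf15 and Trpm2 are higher.

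Receptors and transcription factors of T cell activation followed the same direction for part of the list. Of 25 listed genes 23 were measured, and the difference was lower for 4 (Il2ra, Pdcd1, Batf and Myc), with 19 of 23 below 0 and a median of -1.57. In the cells 8 of 23 fell. Il2ra, the high-affinity interleukin 2 receptor chain, had levels of -3.27 and -2.72 in treated cells, against 1.97 and 0.57 in untreated cells. Its levels were -2.79, -2.57 and -3.40 in treated livers, against -3.02, -4.02 and -3.34 in untreated livers. Treated cells were thus at the level of the livers, which overlapped with each other. The difference was -4.81 ± 0.65 (limma adjusted p = 0.0223), and all 4 probes of the gene had its sign.

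Pdcd1, which encodes the inhibitory receptor PD-1, had levels of -3.23 and -2.74 in treated cells, against 1.26 and 0.99 in untreated cells. Its difference was -4.06 ± 0.71 (limma adjusted p = 0.0369). Batf, an AP-1 family factor of effector T cells, had a difference of -2.57 ± 0.39 (limma adjusted p = 0.028). The costimulatory receptor gene Icos fell by 1.41 on the log2 scale in cells and had a difference of -2.10 without passing. Tbx21, which encodes the T helper 1 factor T-bet, had an effect of -2.61 in cells and -0.09 in liver (difference -2.52 ± 0.67, limma adjusted p = 0.0957). The 4 members with a fitted difference above 0, none of them called, were the checkpoint receptor gene Lag3, Foxp3 of regulatory T cells and the activation-induced factors Nr4a1 and Egr3. Nr4a1, measured in all groups, had 0.93. The other genes had a group below background, and with signals raised to the floor they had -0.52 (Lag3), 0.29 (Foxp3) and 0.11 (Egr3), so that 20 of 23 members lay below 0. Without samples 983, 985, 987 and 989 the number of lower differences in the list was 1, 10, 0 and 4, with signals raised to the floor it was 7, and with the slide as a block or with array weights it was 0.

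Many genes induced by interferon-gamma fell in treated cells, and none passed the test in treated liver. All 32 listed genes were measured. The difference was lower for 6 (Cxcl11, Iigp1, Irgm2, Cxcl10, Serpina3g and Tgtp1) and higher for 0, with 24 of 32 below 0 and a median of -1.25. In cells 19 fell and 1, the guanylate-binding protein gene Gbp2b, rose, with a list median of -1.80, while in liver 0 passed and the median was -0.44. Effects below 0 were found for 29 of 32 genes in cells and for 25 of 32 in liver. Over all genes tested, 43.7% lay below 0 in cells and 39.4% in liver, so the list leaned the same way in both tissues. The median level of the list was 1.79 and 2.30 in treated cells, against 5.01 and 3.72 in untreated cells, and 5.47, 5.35 and 5.54 in treated livers, against 5.70, 5.88 and 5.53 in untreated livers. The number of lower differences was 3, 19, 0 and 8 without samples 983, 985, 987 and 989, 10 with signals raised to the floor, 2 with array weights and 0 with the slide as a block.

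Promoter windows of 300 bases around the transcription start were searched for a motif of interferon-responsive promoters in the named genes of the list, and those of Irgm2 and Cxcl10, both with a lower difference, are shown here because they hold a match. Capitals mark matches on either strand to a core of the interferon-stimulated response element, GAAA repeated after any 2 bases. Sequences are from RefSeq (GRCm38.p6).
Irgm2 (chr11:58214727-58215026, plus strand): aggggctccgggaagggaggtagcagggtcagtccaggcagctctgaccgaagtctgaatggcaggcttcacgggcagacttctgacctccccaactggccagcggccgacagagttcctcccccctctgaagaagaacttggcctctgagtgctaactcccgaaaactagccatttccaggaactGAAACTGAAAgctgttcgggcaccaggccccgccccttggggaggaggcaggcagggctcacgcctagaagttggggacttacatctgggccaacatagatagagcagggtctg
Cxcl10 (chr5:92348840-92349139, minus strand): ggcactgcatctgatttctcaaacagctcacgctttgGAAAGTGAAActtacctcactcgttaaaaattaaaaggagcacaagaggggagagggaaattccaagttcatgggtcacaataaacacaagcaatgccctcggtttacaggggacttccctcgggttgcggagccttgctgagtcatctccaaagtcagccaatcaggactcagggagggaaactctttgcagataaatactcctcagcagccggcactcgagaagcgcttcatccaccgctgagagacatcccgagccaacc
The Irgm2 and Cxcl10 windows hold 1 match each. Among all 32851 promoter windows of 300 bases, 3.4% hold the GAAA repeat. Of 9 named interferon-gamma genes 5 had a window, and 2 of these held the repeat, while that of Serpina3g, also with a lower difference, and those of Cd274 and Cxcl9 held none. A match is a description of the letters and not a bound site.

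Irgm2, an immunity-related guanosine triphosphatase, had levels of -0.76 and -0.45 in treated cells, against 3.41 and 3.23 in untreated cells. Its levels were 6.01, 5.46 and 6.00 in treated livers, against 6.07, 6.38 and 6.28 in untreated livers. The cells separated widely by treatment, and the treated livers lay just below the untreated ones. The effect was -3.92 ± 0.26 in cells (15.1-fold lower) and -0.42 ± 0.21 in liver, a difference of -3.50 ± 0.34 (limma adjusted p = 0.0075). Iigp1, another gene of this family, had an effect of -3.98 in cells and -0.25 in liver (difference -3.73 ± 0.73, limma adjusted p = 0.0489). Tgtp1 had -3.12 in cells and -0.65 in liver. Genes of these families have close copies, so signal from relatives may add to a probe.

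RNA of the CXCR3 ligand genes was lower in treated cells and at high levels in all livers, and no protein was measured. Cxcl11 had levels of -2.98 and -2.64 in treated cells, against 1.99 and 0.76 in untreated cells. Treated livers had 4.49, 4.53 and 4.70, against 3.99, 4.31 and 3.76 in untreated livers. The treated livers lay above the untreated ones while the treated cells lay below theirs, and the difference was -4.73 ± 0.49 (limma adjusted p = 0.0075). Cxcl10 had an effect of -2.73 ± 0.38 in cells and 0.45 ± 0.31 in liver (difference -3.18 ± 0.50, limma adjusted p = 0.0293). Cxcl9 had -2.75 in cells and 0.04 in liver, and its difference of -2.79 ± 0.58 just missed the threshold (limma adjusted p = 0.0549).

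Serpina3g, a protease inhibitor of activated lymphocytes and macrophages, had a difference of -2.78 ± 0.43 (limma adjusted p = 0.0292). The immunoproteasome genes Psmb8 and Psmb9 had differences of 0.64 and 0.15 that did not pass, and the nitric oxide synthase gene Nos2 was below background in all 4 samples of cells. An unadjusted p under 0.05 for the difference was reached by 19 of the 32 genes of the interferon-gamma list. The type I interferon list had 0 of 28 measured genes with a called difference and a median of -0.22, where 5 unadjusted p-values were under 0.05. In it Eif2ak2, a kinase that senses double-stranded RNA, had an effect of -1.73 in cells and -0.32 in liver (difference -1.41 ± 0.37, limma adjusted p = 0.0917).

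Among further inflammatory mediators, Il6 fell in treated cells, with an effect of 0.85 in liver that did not pass. This cytokine gene, which induces the acute phase response in hepatocytes, had levels of -0.33 and 0.52 in treated cells, against 2.90 and 3.13 in untreated cells. Treated livers gave 0.50, 0.72 and 0.57, against -1.16, 0.57 and -0.17 in untreated livers. The cells separated by treatment and the livers overlapped, with a difference of -3.77 ± 0.64 (limma adjusted p = 0.0355). Ccl7, a monocyte-attracting chemokine, had an effect of -3.48 ± 0.34 in cells and -0.38 ± 0.28 in liver (difference -3.09 ± 0.44, limma adjusted p = 0.0232). Its relatives Ccl2 (difference -1.93 ± 0.43, limma adjusted p = 0.0659) and Ccl12 (-2.60 ± 0.60, limma adjusted p = 0.0679) did not pass.

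Of 24 measured genes of the chemokine list, 1 had a called difference, Ccl7. The called chemokine genes Ccl1, Cxcl10 and Cxcl11 count in the T cell cytokine and interferon-gamma lists instead. Of 18 myeloid cytokine genes 1 was called, and of 22 NF-kB targets 0, where 8 unadjusted p-values were under 0.05. F3, which encodes tissue factor, the trigger of coagulation, had levels of -4.92 and -4.38 in treated cells, against -1.54 and -1.36 in untreated cells. It had a difference of -3.75 ± 0.49 (limma adjusted p = 0.0194). With signals raised to the floor the F3 difference was -3.46, and over the 22 alternative settings it ranged between -4.07 and -0.82. Sphk1, which makes the lipid mediator sphingosine 1-phosphate, had -2.79 and -2.15 in treated cells, against 2.10 and 1.13 in untreated cells. It had a difference of -4.21 ± 0.55 (limma adjusted p = 0.0195). Il4i1, a secreted amino acid oxidase of antigen-presenting cells, had a difference of -4.00 ± 0.65 (limma adjusted p = 0.0329). Casp4, the inflammatory caspase that senses lipopolysaccharide, had -1.75 ± 0.30 (limma adjusted p = 0.0367).

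Genes of ribosome biogenesis, the nucleolar assembly of ribosomes that MYC promotes in growing cells, were lower together in treated cells. All 19 listed genes were measured and all 19 had a difference below 0, against 50.9% of all genes. The median difference was -1.49, and it was called lower for 3 (Polr1b, Myc and Nop58). In cells 17 of 19 fell, with a median of -1.63, and in liver 0 passed, with a median of -0.16. Effects in liver lay below 0 for 17 of 19, against 39.4% of all genes, so the small liver shift had the same direction. The list's median level was 2.49 and 3.20 in treated cells, against 5.08 and 4.64 in untreated cells, and 2.87, 2.92 and 2.96 in treated livers, against 3.19, 2.89 and 3.01 in untreated livers. Without samples 983, 985, 987 and 989 the count of lower differences was 0, 16, 0 and 1, while 19 of 19 stayed below 0 in each case. It was 6 with signals raised to the floor and 0 with the slide as a block or with array weights.

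Myc had levels of 4.70 and 5.06 in treated cells, against 6.53 and 6.06 in untreated cells. Levels in treated livers were 2.86, 3.14 and 3.13, against 2.24, 2.88 and 2.44 in untreated livers. Cells were lower with treatment and the livers overlapped, with a difference of -1.94 ± 0.37 (limma adjusted p = 0.0461). The Myc difference passed in 6 of the 22 alternative settings. Polr1b, a core subunit of RNA polymerase I, had an effect of -2.48 ± 0.33 in cells and -0.23 ± 0.27 in liver (difference -2.25 ± 0.42, limma adjusted p = 0.0461). Nop58, a component of nucleolar ribonucleoproteins, had -1.87 ± 0.25 in cells and -0.02 ± 0.20 in liver (difference -1.86 ± 0.32, limma adjusted p = 0.0367).

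The largest effect of the list in cells belonged to the spermidine synthase gene Srm, at -3.21, with a difference of -2.59 that did not pass. A pair of folate genes was called as well. Slc19a1, the reduced folate carrier, had levels of -0.40 and 0.34 in treated cells, against 4.42 and 3.03 in untreated cells, and a difference of -3.81 ± 0.54 (limma adjusted p = 0.0231). Shmt1, a cytosolic serine hydroxymethyltransferase, had a difference of -3.74 ± 0.71 (limma adjusted p = 0.0461). The cell cycle list had 0 of 26 called, a median of -0.36 and 4 unadjusted p-values under 0.05. In that list Ccnd2, the cyclin D2 gene, had an effect of -2.91 in cells and -0.08 in liver (difference -2.83 ± 0.65, limma adjusted p = 0.0671).

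Further genes with a lower difference included a receptor gene, a pro-apoptotic gene and a lymphoid gene. Il1r1, an interleukin 1 receptor, had levels of -3.81 and -3.94 in treated cells, against -1.36 and -0.73 in untreated cells, and a difference of -2.45 ± 0.32 (limma adjusted p = 0.0195). Over the 22 alternative settings the Il1r1 difference ranged between -2.77 and -0.32. Bcl2l11, which encodes the pro-apoptotic protein BIM, had an effect of -2.19 ± 0.46 in cells and 1.04 ± 0.37 in liver (difference -3.23 ± 0.59, limma adjusted p = 0.042). Vpreb1, known as a surrogate light chain gene of B cell precursors, had a difference of -3.81 ± 0.57 (limma adjusted p = 0.028). Of 14 B cell markers 13 lay above 0 in cells, where 1 rose and 1 fell, and the median effect was 0.58. Their sum was 747 and 760 in treated cells, against 349 and 657 in untreated cells, and its part in the differences was not tested.

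Where treated cells were below background, only bounds can be given for the fall in cells. Rag1, a recombinase gene of lymphocyte precursors, was at least 6.62-fold lower in treated cells and below background in all livers. Nrg1, an epidermal growth factor family ligand, was at least 8.77-fold lower, with liver effects near 0 (0.19). Dmkn was at least 6.49-fold lower, and the chemokine receptor gene Ccr1, below background in all livers, at least 2.65-fold lower. With signals raised to the floor, the differences were -3.02 for Rag1, -3.32 for Nrg1, -2.99 for Dmkn and -1.70 for Ccr1. Over the 22 alternative settings the smallest differences were -0.537 for Rag1, -0.635 for Nrg1 and -0.372 for Dmkn. Ccr1 was the only called gene of 17 chemokine receptors, and its difference was 0.03 after normexp background correction. Sh3gl3 and Ccdc116, below background in every liver, had differences of -2.66 and -2.54 with signals raised to the floor. Their smallest differences over the alternatives were -0.509 and -0.938.

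Genes with a higher difference included products of neutrophils and macrophages that were higher in treated cells. Mmp9, a gelatinase stored in neutrophil granules, had levels of 1.05 and 1.52 in treated cells, against -1.33 and -1.41 in untreated cells. In treated livers it had -1.54, -1.79 and -1.95, against -2.34, -1.60 and -2.02 in untreated livers. Treated cells stood above the other 8 samples, and the livers overlapped. The effect was 2.66 ± 0.29 in cells (6.31-fold higher) and 0.23 ± 0.24 in liver, a difference of 2.43 ± 0.38 (limma adjusted p = 0.0292).

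Chil1, a chitinase-like protein of macrophages and neutrophils, had levels of -0.45 and -0.37 in treated cells, against -2.53 and -2.92 in untreated cells. Its levels in treated livers were 0.24, -0.25 and -0.37, against 0.56, -0.03 and 0.26 in untreated livers. Cells separated by treatment, livers overlapped, and the difference was 2.70 ± 0.38 (limma adjusted p = 0.0231). Stfa2, a stefin of the neutrophil lineage with close copies in the genome, had a difference of 2.66 ± 0.49 (limma adjusted p = 0.042). Trpm2, a calcium channel gated by oxidative stress, had levels of 1.17 and 1.04 in treated cells, against -1.45 and -0.64 in untreated cells, and a difference of 1.98 ± 0.39 (limma adjusted p = 0.0483).

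Neutrophil markers as a list had 1 of 18 measured genes with a called difference, Mmp9, and a median difference of 0.59. In cells 7 of 18 rose, with a median of 0.84, and in liver 0 passed, with a median of 0.40. Not all markers went this way: 4 of 18 effects in cells and 5 of 18 differences lay below 0. Their summed level was 666 and 706 in treated cells, against 296 and 184 in untreated cells, and 335 to 414 in treated livers, against 295 to 374 in untreated livers. S100a8, a calcium-binding alarmin, had a difference of 1.55 ± 0.35 (limma adjusted p = 0.0661), and Retnlg had 1.61 ± 0.41 (limma adjusted p = 0.0888). Of 19 macrophage markers 4 rose and 1, the lipopolysaccharide co-receptor gene Cd14, fell in the cells, and 0 differences were called, where 3 unadjusted p-values were under 0.05. Marco, a scavenger receptor, had an effect of 2.38 in cells and 0.51 in liver (difference 1.87 ± 0.43, limma adjusted p = 0.0706). The share of the marker levels in the differences was not tested.

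Several higher differences combined a rise in cells with a lower value in treated liver. Klf15, a glucocorticoid-induced factor of amino acid metabolism, had levels of -2.92 and -3.04 in treated cells, against -5.55 and -4.21 in untreated cells. In treated livers it had -0.27, -0.03 and -0.39, against 1.75, 0.71 and 1.61 in untreated livers. Neither tissue's groups overlapped, and the directions were opposite. The effect was 1.90 ± 0.46 in cells and -1.58 ± 0.37 in liver, a difference of 3.48 ± 0.59 (limma adjusted p = 0.0357). Only 1 untreated cell sample was well above background for Klf15. With signals raised to the floor its effect in cells was 1.45 and its difference 3.03, and its other probe gave a difference of 1.38. Within the 3 slides the liver effect was -2.02, -1.10 and -1.64. Susd1 had a similar pattern, with an effect of 1.58 in cells and -1.35 in liver (difference 2.92 ± 0.45, limma adjusted p = 0.0282). Cyb561, a transmembrane electron transporter, had 1.36 in cells and -0.75 in liver (difference 2.12 ± 0.37, limma adjusted p = 0.037).

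Among genes measured in all groups, Ttc39a had the highest called difference, 4.08 ± 0.78 (limma adjusted p = 0.0461), with levels of -1.64 and -0.81 in treated cells, against -5.86 and -3.66 in untreated cells. Measured here means well above background on some array of each group, not on every array. Over the 22 alternative settings the Ttc39a difference ranged between 1.762 and 5.185. Ifnlr1, the receptor chain for type III interferons, had 2.26 ± 0.34 (limma adjusted p = 0.0276). The unannotated transcript 4732465J04Rik had a difference of 2.66, the chromatin gene Phf21a 2.11 and the Arf regulator gene Agap1 1.99. Among genes with a group below background, Smpd3, a neutral sphingomyelinase gene, was at least 5.31-fold higher in treated cells, and Fblim1 at least 2.0-fold higher. Pde4dip was at least 4.40-fold higher by its brightest probe, while 3 of its 6 probes had that sign. Its smallest difference over the alternative settings was 0.375. Cbx8, a Polycomb component, was at least 2.49-fold lower in treated liver, and Tbx6 at least 1.29-fold lower. With signals raised to the floor, the difference was 2.19 for Cbx8, 1.83 for Tbx6 and 1.61 for Npm2, a nucleoplasmin gene.

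A few differences arose in the liver. The 5 genes with a lower difference that rose in liver were Gimap5, Glipr1l1, Kcna1, AY074887 and E130120C16Rik, named after their values were seen. Gimap5, a survival GTPase of lymphocytes, had levels of 1.70, 1.48 and 1.41 in treated livers, against -0.42, -0.37 and -0.33 in untreated livers. Its levels were 5.69 and 5.79 in treated cells, against 5.47 and 5.66 in untreated cells. The livers did not overlap and the cells lay close together, with a difference of -1.73 ± 0.26 (limma adjusted p = 0.0282). Its dimmer probe gave -1.85 in cells and -0.04 in liver, so that the 2 probes place the difference in different tissues. The other 4 genes were below background in all untreated livers. Glipr1l1, Kcna1 and E130120C16Rik were also below background in all samples of cells, so their effect in cells was not measured. AY074887 was below background in the treated cells. With signals raised to the floor, the differences were -1.87 for Glipr1l1, -1.76 for Kcna1, -1.61 for AY074887 and -1.19 for E130120C16Rik. The gene with a higher difference that fell in liver was 4933406P04Rik, also named after its values were seen, with an effect of 0.82 in cells. It was below background in all treated livers, and with signals raised to the floor its effect in liver was -0.18 and its difference 1.00.

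The heat shock and unfolded protein genes had called differences in 0 of 19 and 0 of 22 measured genes. There 2 and 4 unadjusted p-values were under 0.05, against 2781 of all 15277 genes. Hspa1a, an inducible HSP70 gene whose copy Hspa1b may share its signal, had levels of -0.85 and 0.93 in treated cells, against 2.31 and 0.52 in untreated cells. Treated livers had -1.11, -1.09 and 1.03, against 4.63, 2.01 and 2.82 in untreated livers. The cells overlapped and the livers did not. The effect was -1.38 ± 1.05 in cells and -3.54 ± 0.86 in liver, and the difference of 2.16 ± 1.36 did not pass (limma adjusted p = 0.433).

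Creld2, an endoplasmic reticulum chaperone gene, had an effect of -0.13 in cells and -1.62 in liver (difference 1.49 ± 0.50, limma adjusted p = 0.161). Ddit3, a transcription factor of the integrated stress response, had 0.57 in cells and -1.48 in liver (difference 2.05 ± 0.64, limma adjusted p = 0.139). Hspd1, a mitochondrial chaperonin gene, was on the other side, with -2.29 in cells and -0.13 in liver (difference -2.17 ± 0.60, limma adjusted p = 0.107). Fos, an immediate early gene, had 1.29 in cells and -1.36 in liver, and its difference of 2.66 ± 0.53 just missed the threshold (limma adjusted p = 0.0506). Pdk4, which restrains pyruvate oxidation during fasting, had an effect of 0.08 in cells and 2.64 in liver (difference -2.56 ± 0.63, limma adjusted p = 0.0813). Gadd45a, a stress-induced growth arrest gene that rose in liver by 1.64, had 0.80 in cells and a difference of -0.84 ± 0.34 (limma adjusted p = 0.229).

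**Figure D3:**
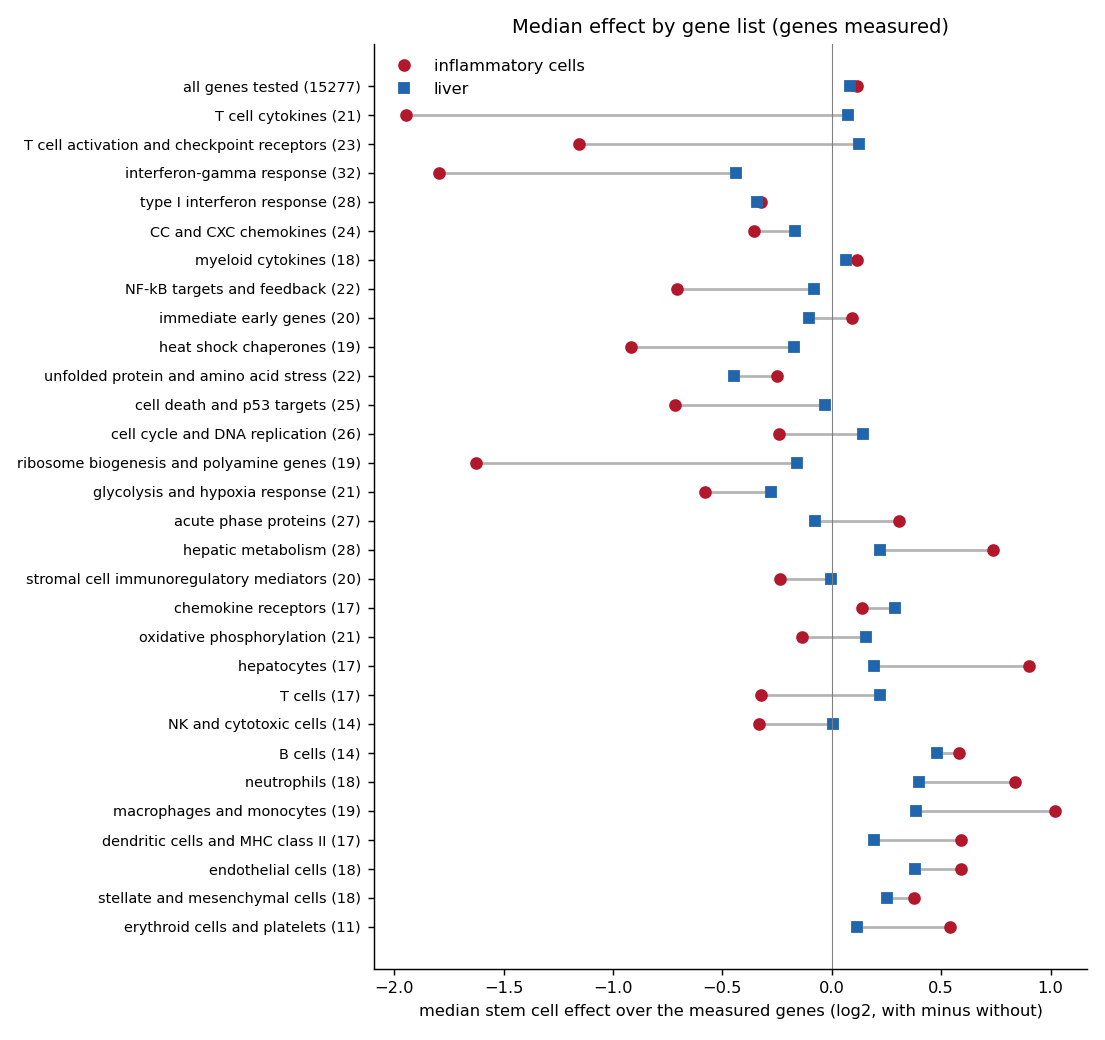
Median stem cell effect (log2 treated minus untreated) over the measured genes of each list, with circles for inflammatory cells and squares for liver. T cell cytokines, interferon-gamma response and ribosome biogenesis have the lowest medians in cells (-1.95, -1.80 and -1.63), and their liver medians are 0.07, -0.44 and -0.16.

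Hepatic and stromal lists showed few called differences. Hepatic metabolism genes had a median difference of 0.64 and acute phase genes one of 0.36, with 0 of 28 and 1 of 27 called, the acute phase list through Il1r1, and with 6 and 3 unadjusted p-values under 0.05. All 17 measured hepatocyte markers had a difference above 0 and 0 were called, with 2 unadjusted p-values under 0.05. That direction depended on single cell samples. Without sample 983, 7 of 17 markers lay below 0 (median 0.10), and without sample 989, 5 of 17 did (median 0.14). Without sample 985 or 987, 0 of the 17 markers lay below 0 (medians 1.32 and 1.24). Their summed level was 248 and 571 in treated cells, against 155 and 315 in untreated cells. Cps1, a urea cycle enzyme, had an effect of 2.81 in cells and 0.21 in liver (difference 2.60 ± 0.74, limma adjusted p = 0.118). For Alb the difference was 0.80 ± 0.75 (limma adjusted p = 0.603). Of 20 measured mediators known from immunoregulatory stromal cells, 2 had a lower difference, Sphk1 and Il6, both already described. Stellate and mesenchymal markers had 0 of 18 called, and Col5a1, Pdgfra, Des, Rgs5 and Lrat were below background in all 4 samples of inflammatory cells.

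**Figure D4:**
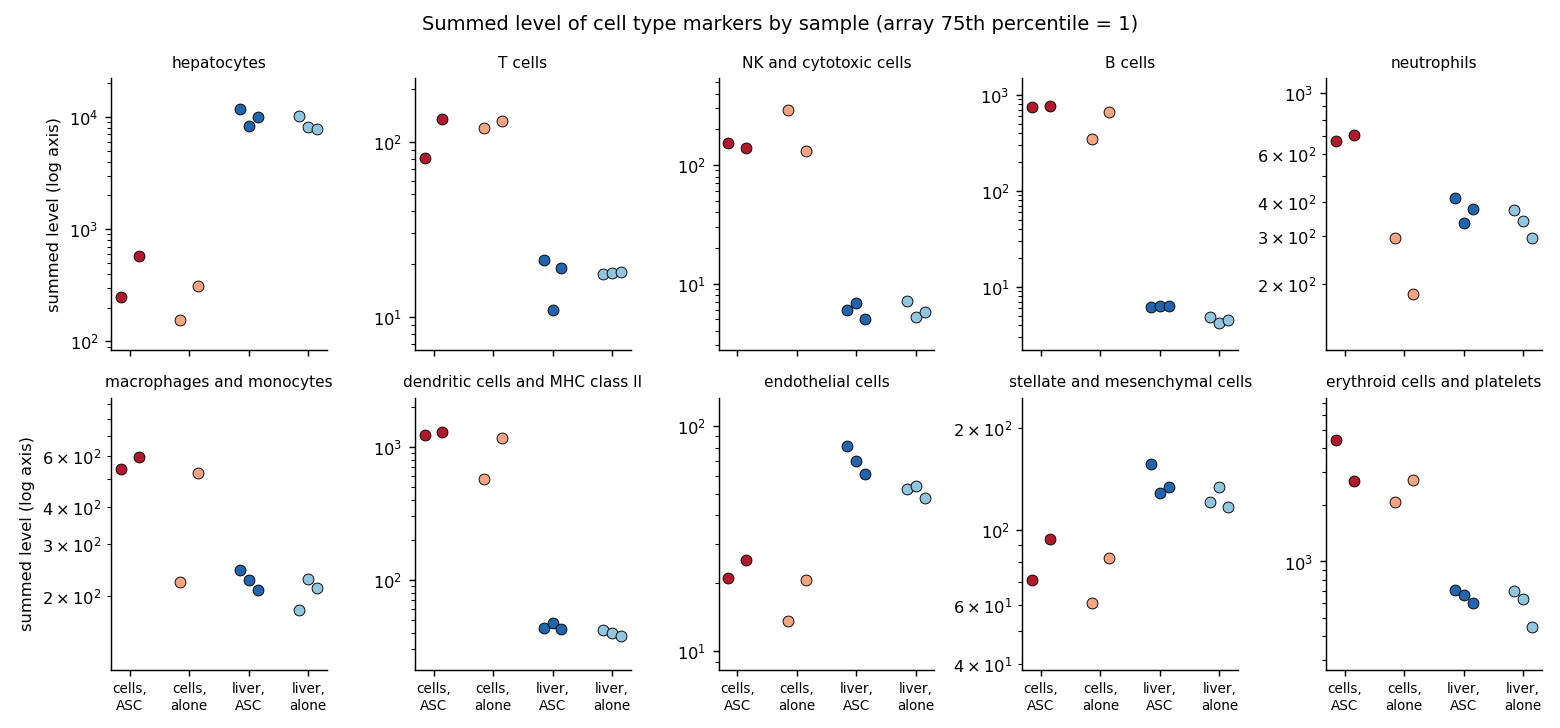
Summed level of the markers of 10 cell types in each sample (log axis, in units of the array's 75th percentile), for treated cells, untreated cells, treated liver and untreated liver. A missing value adds nothing to a sum. Gzma, of the NK and cytotoxic markers, had no value in untreated cell sample 985, and Cd3e had none in sample 983. Neutrophil markers are higher in treated cells (666 and 706) than in untreated cells (296 and 184), whereas T cell markers overlap.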

How the data were processed

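RNA of 16 samples was hybridised to Agilent mouse arrays with Cy3 alone. The deposited scanner files hold linear spot intensity from Agilent Feature Extraction 10.5.1.1, background-subtracted and detrended, with no normalization between arrays, per the file headers. The authors' value table holds the same intensity values. Probe positions are on build mm8, per the file headers.

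Control and outlier spots were left out, each processed signal was put on the log2 scale relative to its array's 75th percentile, and probes that 2 or more of the 10 arrays showed well above background were kept (24566 of 41174). The brightest kept probe stood for each of 15277 genes. The fit used limma 3.58.1 in R 4.3.3 with 4 group means and Benjamini-Hochberg adjustment at 0.05, so all 10 arrays share 1 estimate of the spread. On simulated data 42% of log2 differences of 2 and 83% of differences of 4 were recovered. Errors after ± are standard errors. Genes below background on all arrays of a group have only a bound there, and differences were repeated with signals raised to the floor.

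Genes named are the 12 most negative and 12 most positive called differences among genes measured in all groups, 6 in each direction among called genes with a group below background, 3 of smallest p per list, and a panel. The groups, the 29 lists and the panel were chosen with earlier results of these data known. Alternatives covered background, scaling, filter, arrays, weights, slide, probes and each sample left out. 1 gene of the interferon-gamma list counts in the list's totals and is not reported or drawn here on its own.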

Additional observations from a re-analysis of the deposited data

Results flagged for a closer look

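By the test of the difference itself, the stem cell effect differed between cells and liver for 49 genes named by the rules above (limma, adjusted p under 0.05). Called genes named outside those rules, such as Gimap5, Glipr1l1 and Kcna1, are not listed here. Each value is the log2 effect in cells minus that in liver, and no cause of these differences was tested.

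Among genes measured in all groups, the negative differences were those of Ccl1 (-6.02), Il2ra (-4.81), Cxcl11 (-4.73), Sphk1 (-4.21), Pdcd1 (-4.06), Il4i1 (-4.00), Slc19a1 (-3.81), Vpreb1 (-3.81), Il6 (-3.77), F3 (-3.75), Shmt1 (-3.74) and Iigp1 (-3.73). Those that followed were Irgm2 (-3.50), Ifng (-3.48), Bcl2l11 (-3.23), Cxcl10 (-3.18), Ccl7 (-3.09), Serpina3g (-2.78), Batf (-2.57), Il1r1 (-2.45), Polr1b (-2.25), Myc (-1.94), Nop58 (-1.86) and Casp4 (-1.75). The positive differences were those of Ttc39a (4.08), Klf15 (3.48), Susd1 (2.92), Chil1 (2.70), 4732465J04Rik (2.66), Stfa2 (2.66), Mmp9 (2.43), Ifnlr1 (2.26), Cyb561 (2.12), Phf21a (2.11), Agap1 (1.99) and Trpm2 (1.98).

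The other 13 genes had at least 1 group below background, so their fitted sizes have no order. The fitted difference, and in its place the one with signals raised to the floor, was -7.56 and -5.29 for Il3, -4.77 and -3.02 for Rag1, -3.76 and -3.32 for Nrg1, and -3.48 and -2.99 for Dmkn. It was -3.23 and -1.70 for Ccr1, -3.16 and -2.66 for Sh3gl3, and -3.05 and -2.54 for Ccdc116. Above 0 it was 3.17 and 1.83 for Tbx6, 3.14 and 2.19 for Cbx8, 2.43 and 2.20 for Smpd3, 2.351 and 1.504 for Fblim1, 2.15 and 1.96 for Pde4dip, and 2.00 and 1.61 for Npm2.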

How the results depend on the processing

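Each count is of genes with a lower, then a higher value at an adjusted p under 0.05 by limma, and no cause of a shift was tested. For the difference, against 159 and 39, the counts were 534 and 167 after normexp background correction, 241 and 96 after quantile normalization, 30 and 6 with no filter on dim probes, 242 and 62 with a stricter filter, and 320 and 96 with all 16 arrays. They were 18 and 1 with array weights, 19 and 1 with weights per tissue, 2 and 0 when the slide was a block, and 241 lower ones with signals raised to the floor. For the effect in cells, against 1204 and 687, they were 2127 and 4892 after normexp, 237 and 42 with array weights, 214 and 35 with weights per tissue, 573 and 195 when the slide was a block, with 372 higher ones under no filter. For the effect in liver, against 6 and 8, they were 94 and 97 with array weights, 42 and 40 with weights per tissue, 0 and 0 when the slide was a block, 2 and 3 with signals raised to the floor, and 0 and 1 with no filter, while 3 rose after normexp and 2 with all 16 arrays. Normexp moved the median difference of all genes to 0.21, against -0.02. When each sample was left out in turn, the difference had 4 to 1313 lower and 1 to 1133 higher genes, the cells 222 to 2069 and 97 to 2397, and the liver 0 to 30 and 0 to 233. With the slide as a block, 2374 genes had an unadjusted p under 0.05 for the difference and 1476 for the effect in liver.

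Of 81 genes followed through 22 alternatives, 49 had a called difference, and 48 of these kept their direction in every alternative. The call was kept less often than the direction. Of the 22 alternatives, Il3 passed in 22, Ccl1 in 21, Irgm2 in 20, Ifng in 17 and Il2ra in 16. Cxcl10 passed in 10, Myc in 6 and Fblim1 in 5. Ccr1 turned to 0.031 after normexp, and Alb, not called, ranged between -0.092 without untreated cell sample 983 and 1.694 without sample 985. No paired analysis was possible by mouse number because the groups share none, and the fit with the slide as a block compared livers within slides. The samples of cells (2 in each group) limit every difference, and slide and tissue cannot be told apart.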

Other observations

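Some further genes with a lower difference are named here after their values were seen, and the families they come from were not a list of the study design and had no test. Timm8a1, Timm9 and Timm10, chaperones of the intermembrane space, had log2 differences of -2.63, -2.07 and -2.06. Chchd4, an oxidoreductase of that import route, had -2.35, and Tomm70a, an outer membrane receptor, had -1.60. Fastkd2, Fastkd3 and Fastkd5, which act on mitochondrial RNA, had -1.63, -1.96 and -1.96. Of all measured genes with the symbol stem Timm, 3 of 15 had a lower difference (median -0.96), with the stem Tomm 1 of 9 (median -0.41) and with the stem Fastkd 3 of 4 (median -1.79), against 1.04% of all genes. The oxidative phosphorylation list had 19 of 21 genes below 0, a median of -0.40 and 0 called. In it 3 unadjusted p-values were under 0.05, against 2781 of all 15277 genes.

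Several genes fell or rose in the inflammatory cells without passing the test of the difference by limma. Gadd45g, a stress gene of activated lymphocytes, had an effect of -2.03 in cells and -0.13 in liver (difference -1.89 ± 0.40, adjusted p = 0.055). Sod2, the mitochondrial superoxide dismutase gene, had -1.59 and 0.08 (difference -1.68 ± 0.37, adjusted p = 0.0633). Gzmb, the granzyme B gene, had -2.12 and -0.06 (difference -2.05 ± 0.62, adjusted p = 0.131). In the other direction Ccr3, the eotaxin receptor gene, had 2.03 and 0.42 (difference 1.61 ± 0.36, adjusted p = 0.066). Adgre1, which encodes the macrophage marker F4/80, had 1.63 and 0.47 (difference 1.16 ± 0.39, adjusted p = 0.166).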
